A study of Mus musculus with 6 samples.

Results

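The genes described here are the heat shock proteins and chaperonins of mouse C2C12 myoblasts, chosen by gene symbol alone: the heat shock protein families (Hspa, Hspb, Hspd, Hspe, Hsph and Hsp90 symbols), the J-domain proteins (Dnaja, Dnajb and Dnajc symbols), the subunits of the CCT chaperonin (Cct2 to Cct8 symbols and Tcp1), Cryab, and the heat shock factors Hsf1 and Hsf2. In GENCODE M21, a GRCm38 annotation, 102 symbols matched, and 76 of them had values, out of 14548 genes in all. The other 26 (15 pseudogenes and 11 protein coding genes, among them Hspa1b, Hspa14 and Dnajc19) were not analysed here. The rule itself uses no measured value.

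RNA-seq was compared between 3 wild-type (WT) libraries and 3 MSTN-knockout (MSTN-KO) libraries, and gene expression was given as FPKM, the fragments of a gene divided by its exon length and by the mapped fragments of its library. C2C12 is an established line of mouse skeletal myoblasts, cells that can fuse into muscle fibres. In the MSTN-KO cells the gene of myostatin, a secreted inhibitor of muscle growth, had been cut by CRISPR/Cas9. All of the cells grew in DMEM with fetal bovine serum, and the labels name no treatment. The knockout group was a line called C11, so line and genotype cannot be told apart, and the strain label reads C11 for the WT libraries as well. Nothing states that the 3 libraries of a group came from separate cultures, so the p-values measure the spread between these libraries, which may be technical.

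The files give no read counts, and the absolute depth is unknown. The depth relative to WT replicate 1, read from the steps between low values, lay between 0.96 and 1.1. The sum of all FPKM values was 723705 to 764524 in the WT and 856314 to 999579 in the MSTN-KO libraries. Mstn itself was at or near 0 in every library (0, 0.0211 and 0.0399 FPKM in WT, 0.0269, 0.0390 and 0.0586 in MSTN-KO, exact permutation p = 0.3, two-sided), so its level could not check the labels. Of 5 myoblast markers with values, Myod1 (145 FPKM in WT and 96.1 in MSTN-KO) and Des (710 and 363) were high in both groups, and 3 of the 5 were called lower and 1 higher in MSTN-KO. Markers of endothelial cells were under 1 FPKM in every library. The fibroblast, adipocyte and macrophage lists, of which not all genes had values, gave 2 calls, Dcn lower (2.37 and 1.04) and Fabp4 higher (0.241 and 1.24). Col1a1, of the fibroblast list, had 10.1 FPKM in WT and 13.5 in MSTN-KO and was not called. WT replicate 3 stood apart from the other WT libraries in its muscle differentiation genes, as given beside the small heat shock proteins. In bulk RNA, fewer cells of a type and less RNA per cell cannot be told apart.

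Chaperones bind unfolded or partly folded proteins and keep them from aggregating, or give them a closed space in which to fold. The HSP70 proteins work in cycles of ATP binding, with J-domain proteins bringing in the client and exchange factors releasing it, while HSP90 acts later on kinases, receptors and, in muscle, on myosin. The CCT complex is a ring of related subunits that folds actin and tubulin, and HSP60 with its lid HSP10 does similar work in mitochondria. Small heat shock proteins hold clients without ATP, and several are abundant in muscle, where they sit on desmin, titin and other parts of the contractile lattice. Many of these genes are induced by the transcription factor HSF1 when proteins unfold in the cytosol, and those of the endoplasmic reticulum by a separate stress response.

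Of the 76 genes, 68 reached at least 1 FPKM in a library and entered the test, which was limma on log2(FPKM + 1) over all 10837 genes that passed the same filter. Fold changes below are MSTN-KO against WT on that log2 scale, which understates the change of low genes, and a gene was called where its Benjamini-Hochberg adjusted p over all tested genes was under 0.05. The chaperone genes held 4 called higher, beside 8.78% of all tested genes, and 6 called lower, beside 8.96%. The 10 calls were 14.7% of the tested chaperone genes, near the 17.7% of all tested genes called in either direction. The median fold change of the 68 genes was -0.02, against a median of -0.00078 for all tested genes, with 31 genes higher and 37 lower. None met the rule for differentially expressed genes (DEGs) used in the study's methods, an unadjusted p under 0.05 with a log2 fold change beyond 1, which took in 1.21% of all tested genes as upregulated and 2.3% as downregulated. At an unadjusted p under 0.05 alone there were 25 chaperone genes, 9 higher and 16 lower, against 32.6% of all tested genes. The libraries of the groups did not overlap for 22 of the 68 genes (10 above and 12 below WT), beside 37.4% of all tested genes.

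The split between higher and lower calls depended on the scaling. With each library scaled to a sum of 1000000, which moved the median of all tested genes to -0.26, 1 chaperone gene was called higher and 17 lower, and 9 of the 68 had a positive fold change and 59 a negative one. Set against that median, 31 of the 68 genes stood above it and 37 below. Without scaling the numbers were the same, since a constant factor per library moves most genes alike. With quantile normalization 26 of the 68 were positive and 42 negative, and 25 stood above the median of all tested genes and 43 below. Hspb6, Dnajb11 and Hspa12b were called under each of the 10 processing alternatives and without any 1 of the 6 libraries. Leaving out each library in turn gave 1 to 4 chaperone genes called higher and 3 to 9 called lower, with 2 and 3 without WT replicate 3.

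**Figure D1:**
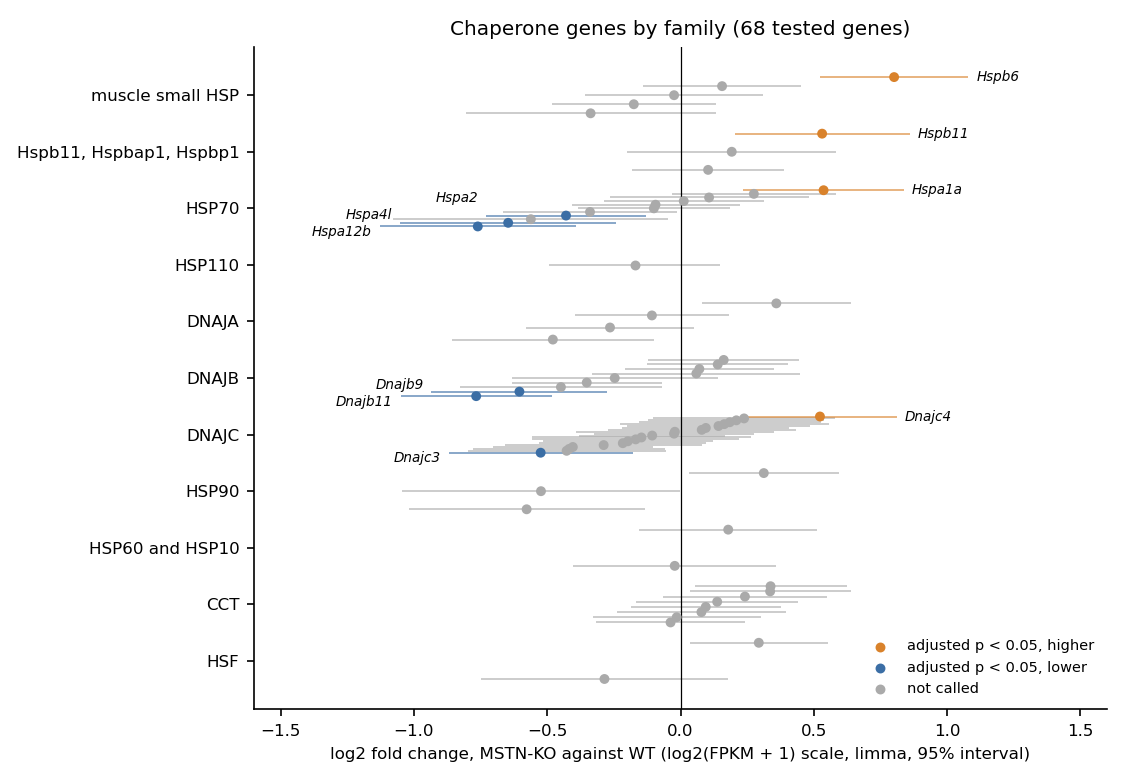
Log2 fold change of each of the 68 tested chaperone genes, MSTN-KO against WT on the log2(FPKM + 1) scale, with its 95% interval from limma, grouped by family. The 4 genes called higher (orange) and the 6 called lower (blue) are named, and the lower calls lie in the HSP70, DNAJB and DNAJC families.

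The muscle small heat shock protein genes are Hspb1, Hspb2, Hspb3, Hspb6, Hspb7, Hspb8 and Cryab, and Hspb6 was the member that changed. It encodes HSP20, a small heat shock protein of cardiac, skeletal and smooth muscle. Hspb6 (chromosome 7, 30552178 to 30555443, GRCm38) had 23.9, 23.6 and 25.5 FPKM in WT and 43.8, 38.1 and 47.9 in MSTN-KO. All 3 MSTN-KO libraries lay above all 3 WT libraries, and the log2 fold change of 0.80 ± 0.13 (SE, n = 3 per group) had an adjusted p of 0.00113. This was the largest rise among the tested chaperone genes.

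The most abundant members of the group did not pass the test. Hspb1 (chromosome 5, 135887919 to 135889563), which encodes HSP27, a small heat shock protein that also binds actin filaments, was the most abundant of all 76 genes. It had 3098, 3125 and 2922 FPKM in WT and 2552, 2974 and 3543 in MSTN-KO, with a log2 fold change of -0.02 and a 95% interval from -0.36 to 0.31. The MSTN-KO libraries spread on both sides of the WT values. Cryab encodes αB-crystallin, which binds desmin, and it had 483, 463 and 506 FPKM in WT and 394, 382 and 524 in MSTN-KO. MSTN-KO replicates 1 and 2 lay under the WT libraries and replicate 3 above them, and the log2 fold change was -0.18 (95% interval -0.48 to 0.13). Hspb8, a partner of the cochaperone BAG3 in the removal of damaged filament proteins, had 86.1, 77.2 and 64.1 FPKM in WT and 77.4, 83.5 and 91.5 in MSTN-KO. Its groups overlapped, with a log2 fold change of 0.16 (95% interval -0.14 to 0.45).

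The calls of Hspb1 and Cryab depended on the normalization. With quantile normalization both were called lower, Hspb1 by -0.43 (adjusted p = 0.0164) and Cryab by -0.39 (adjusted p = 0.0105). Cryab was also called lower by -0.46 after scaling to equal sums (adjusted p = 0.00676) and by -0.27 after a correction for gene length and GC content (adjusted p = 0.0419).

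The remaining members were lower in abundance. Hspb2, which encodes a binding partner of the myotonic dystrophy kinase, had 23.5, 20.3 and 13.9 FPKM in WT and 10.7, 14.8 and 19.8 in MSTN-KO, with overlapping groups and a log2 fold change of -0.34 (95% interval -0.81 to 0.13). Hspb2 and Cryab lie head to head on chromosome 9, with annotated starts at 50752354 on the minus strand and 50751325 on the plus strand, and their annotated spans overlap. Whether the counting used strand is not given in the sources used here, so reads in the shared stretch cannot be assigned to either gene. The ratio of Cryab to Hspb2 was 20.5, 22.8 and 36.4 in WT and 36.7, 25.7 and 26.4 in MSTN-KO (exact permutation p = 0.5, two-sided).

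Hspb7, the cardiovascular small heat shock protein, and Hspb3, found in muscle, were under 1 FPKM in every library and did not enter the fit. Hspb7 had 0.639, 0.634 and 0.171 FPKM in WT and 0.273, 0.151 and 0.0715 in MSTN-KO (exact permutation p = 0.2, two-sided, where 3 against 3 libraries cannot give less than 0.1). Hspb3 had 0.166 and 0.159 FPKM in WT replicates 1 and 2 and was listed at 0 in the other 4 libraries (exact permutation p = 0.4). The 5 genes whose log2(FPKM + 1) followed that of Hspb7 most closely over the 6 libraries were Uqcc1 (Pearson r = 0.986), Ulk2 (0.984), Defb25 (0.977), Rnf141 (0.974) and Afap1l2 (0.973), given as a description over libraries that fall into 2 groups.

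**Figure D2:**
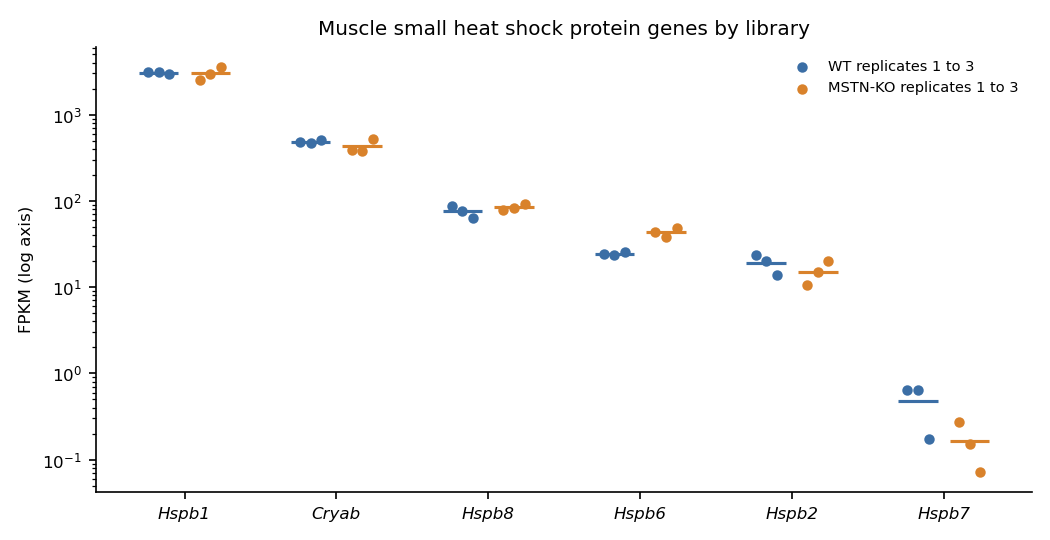
FPKM on a log axis of 6 muscle small heat shock protein genes in each of the 3 WT (blue) and 3 MSTN-KO (orange) libraries, with bars at the group means (Hspb3, with values of 0, is left out). The groups are apart for Hspb6 and overlap for the other 5 genes, and Hspb1 is the highest, with 2552 to 3543 FPKM.

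Differentiation genes of muscle moved with the genotype beside these values. Of 25 muscle differentiation genes in a list, 24 had values and 21 were tested. 20 were called lower and 1 higher (Tpm2, 0.89), beside 8.96% and 8.78% of all tested genes, with a median log2 fold change of -2.53. Myog, the transcription factor of terminal myoblast differentiation, had 175, 148 and 47.3 FPKM in WT and 7.33, 10.2 and 11.6 in MSTN-KO. The median deviation of the list from the WT mean, on the log2 scale, was 0.33, 0.57 and -1.10 in WT and -2.65, -2.53 and -2.10 in MSTN-KO, so WT replicate 3 stood apart from the other WT libraries. The same measure over the muscle small heat shock protein genes was 0.02, 0.04 and -0.06 in WT and -0.26, -0.03 and 0.22 in MSTN-KO. Of the 5 tested small heat shock protein genes, 0 were called lower by limma, beside 8.96% of all tested genes. At an unadjusted p under 0.05, 0 were lower, beside 1760 of all 10837 tested genes. Under the processing alternatives 0 to 2 were called lower, the 2 with quantile normalization, where 941 of all tested genes were called lower. The part of differentiation in the Hspb6 and Hspb2 values was not tested.

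The genes for chaperones of the endoplasmic reticulum (ER) lumen lay on the lower side in MSTN-KO. This set of 7 (Hspa5, Hspa13, Hsp90b1, Dnajb9, Dnajb11, Dnajc3 and Dnajc10) was drawn up after the values were seen. All 7 had a negative fold change, with a median of -0.56 on the log2 scale, 3 were called (17.7% of all tested genes were) and 6 had an unadjusted p under 0.05 (32.6% of all tested genes). J-domain proteins of the ER membrane were not in the set. Of these, Dnajc1 had 4.82 ± 0.384 FPKM in WT and 5.75 ± 0.795 in MSTN-KO (SD, n = 3) and a log2 fold change of 0.21. Dnajb12, Dnajb14 and Dnajc18 had log2 fold changes of 0.16, 0.06 and 0.08, and Dnajc16 had -0.20, and they were not called. Under the 10 processing alternatives the 7 stayed negative and 2 to 5 of them were called. The 5 came after scaling to equal sums, which called 350 of all 10837 tested genes higher and 2367 lower. After the correction for length and GC content the median of the 7 was -0.37. That setting called 2 of them, beside 1212 of all tested genes higher and 1344 lower. The summed level of the 7 was 358, 454 and 476 FPKM in WT and 288, 366 and 275 in MSTN-KO. MSTN-KO replicate 2 overlapped the lowest WT library.

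The 3 that were called are J-domain partners of BiP. Dnajb11, or ERdj3, is a cofactor that binds unfolded clients and hands them to BiP. It had 47.8, 55.1 and 51.7 FPKM in WT and 30.5, 26.3 and 33.1 in MSTN-KO, with a log2 fold change of -0.77 ± 0.13 (SE) and an adjusted p of 0.00168. Every MSTN-KO library lay under every WT library, and this was the largest fall among the tested chaperone genes on the log2(FPKM + 1) scale. As a ratio of group means the fall of Hspa12b was larger (0.447 against 0.581). Dnajb9, or ERdj4, serves in ER-associated degradation and in holding the stress sensor IRE1 inactive. It had 6.40, 6.47 and 6.0 FPKM in WT and 3.57, 4.53 and 3.35 in MSTN-KO, with a log2 fold change of -0.60 ± 0.15 and an adjusted p of 0.0165. The groups did not overlap, but the call was lost without WT replicate 2 (adjusted p = 0.0778), without MSTN-KO replicate 1 (0.0622), and with the replicate block and the length and GC correction together (0.0515).

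Dnajc3, or p58IPK, is a lumenal cochaperone named for its inhibition of eIF2α kinases. It had 11.9, 11.5 and 11.9 FPKM in WT and 9.82, 7.84 and 6.29 in MSTN-KO, with a log2 fold change of -0.52 ± 0.16 and an adjusted p of 0.038. The groups did not overlap. The call was lost without any 1 of the WT replicates 1, 2 and 3 (adjusted p = 0.0867, 0.106 and 0.0849) and without MSTN-KO replicate 2 or 3 (0.0534 and 0.109), without a filter (0.0842), with quantile normalization (0.0508), and after the correction for length and GC content without and with the replicate block (0.0672 and 0.0529).

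The large chaperones of the lumen were lower on average but were not called. Hspa5 (chromosome 2, 34771970 to 34777547) encodes BiP, the HSP70 of the ER and the best known target of the unfolded protein response. It had 133, 181 and 191 FPKM in WT and 119, 147 and 129 in MSTN-KO, with a log2 fold change of -0.34 (95% interval -0.67 to -0.01) and an adjusted p of 0.137. WT replicate 1 lay among the MSTN-KO libraries, and without it the gene was called lower (-0.50, adjusted p = 0.0355), while without another library the fold change ran from -0.42 to -0.24 and was not called. Hsp90b1, or GRP94, the HSP90 of the ER, had 118, 161 and 172 FPKM in WT and 88.7, 142 and 77.6 in MSTN-KO (-0.58, adjusted p = 0.0695). MSTN-KO replicate 2 lay inside the WT range, and without it the gene was called lower (-0.83, adjusted p = 0.00272), while without MSTN-KO replicate 3 the fold change was -0.40 (adjusted p = 0.273).

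Hspa13, an HSP70 relative of the microsome, had 9.26, 6.40 and 9.98 FPKM in WT and 5.42, 8.19 and 3.39 in MSTN-KO, with overlapping groups (-0.56, adjusted p = 0.122). Leaving out 1 library moved it between -0.29 without MSTN-KO replicate 3 (adjusted p = 0.417) and -0.83 without MSTN-KO replicate 2, where it was called lower (adjusted p = 0.0128), and none of the 10 processing alternatives called it. Dnajc10, a disulfide reductase with a J domain, had 30.6, 32.8 and 32.8 FPKM in WT and 31.0, 30.1 and 22.2 in MSTN-KO (-0.22, adjusted p = 0.321).

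**Figure D3:**
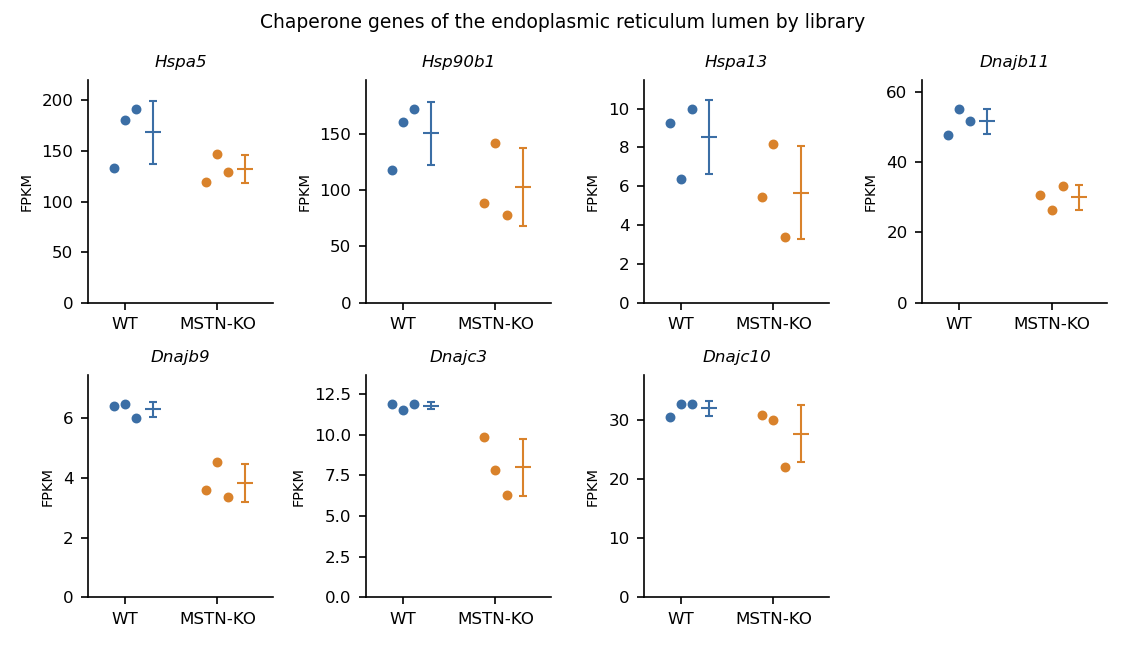
FPKM of the 7 genes for chaperones of the endoplasmic reticulum lumen in each of the 3 WT (blue) and 3 MSTN-KO (orange) libraries, with the mean and SD of each group beside the points and every axis from 0. The groups are apart for Dnajb11, Dnajb9 and Dnajc3 and overlap for Hspa5, Hsp90b1, Hspa13 and Dnajc10.

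Of the other folding genes of the ER, Sdf2l1 fell. In a list of 16 such genes outside the symbol rule, 13 had values and were tested. Of these, 0 were called higher and 1 lower (7.69%, beside 17.7% of all tested genes). The median log2 fold change was -0.20. After scaling to equal sums 5 were called lower, beside 2367 of all 10837 tested genes, whose median moved to -0.26. Sdf2l1, a partner of BiP and ERdj3, had 33.4, 28.7 and 31.9 FPKM in WT and 15.7, 14 and 13.7 in MSTN-KO (-1.06 ± 0.13, adjusted p = 0.000118), and it met the DEG rule. Calr, the lectin chaperone calreticulin, had 378 ± 10.3 FPKM in WT and 418 ± 50.2 in MSTN-KO (SD, n = 3) and was not called. By the limma test, 2 of the 13 had an unadjusted p under 0.05, beside 32.6% of all tested genes.

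The ER stress element, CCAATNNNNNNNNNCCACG, is the site at which the factors NF-Y and ATF6 are known to bind. It was searched on both strands in the 250 bases before each RefSeq start (GRCm38.p6), where 60 of the 76 chaperone genes had an entry. It was present before 0.13% of 27025 genes and before 3 of the 60 chaperone genes: Hspa5, Hsp90b1 and Dnajc3. The element begins at -65 in Hspa5, at -212 and, on the opposite strand, at -107 in Hsp90b1, and at -105 in Dnajc3, counted from the base before the start as -1. The stretches that hold it are shown because Dnajc3 was called lower and Hspa5 and Hsp90b1 were the most abundant genes of the set. They run 5′ to 3′ on the strand of the gene, with the element in capitals. For Hspa5 only 30 bases are given, since GENCODE M21 annotates an exon over the site, and for Hsp90b1 the bases of an annotated exon are left out. The regions are chr2:34772020-34772049 (plus strand), chr10:86705510-86705694 (minus strand) and chr14:118937682-118937931 (plus strand).
Hspa5: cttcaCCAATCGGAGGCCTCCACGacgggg
Hsp90b1: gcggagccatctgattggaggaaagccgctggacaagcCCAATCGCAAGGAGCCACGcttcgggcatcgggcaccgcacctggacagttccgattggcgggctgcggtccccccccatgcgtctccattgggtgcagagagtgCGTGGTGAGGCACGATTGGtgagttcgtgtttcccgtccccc
Dnajc3: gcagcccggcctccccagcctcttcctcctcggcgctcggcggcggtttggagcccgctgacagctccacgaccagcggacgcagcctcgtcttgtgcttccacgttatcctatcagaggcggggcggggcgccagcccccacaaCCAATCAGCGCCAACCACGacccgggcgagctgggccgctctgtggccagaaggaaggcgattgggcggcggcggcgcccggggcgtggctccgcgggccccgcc

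A match in these letters is a description and was not tested as a binding site in these cells. The windows of Dnajb11 and Dnajb9 hold no match of this spelling. Shorter motifs, also searched on both strands, were counted in the same windows. ATTGG, whose reverse complement begins the ER stress element, lay before 36.7% of the 60 and 37.5% of all genes. CAGCTG, the E-box of myogenic factors, lay before 18.3% and 14.7%. TATAAA lay before 5% and 14.3%, in Hspb6, Hspb3 and Dnajc24.

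The cytosolic HSP70 genes went both ways. Hspa8 (chromosome 9, 40800984 to 40810087), the constitutive HSC70, had 956, 1158 and 1229 FPKM in WT and 1324, 1238 and 1471 in MSTN-KO. All MSTN-KO libraries lay above all WT libraries, but the log2 fold change of 0.28 (95% interval -0.03 to 0.58) had an adjusted p of 0.199, and it turned to -0.09 with quantile normalization and -0.01 after scaling to equal sums. Hspa1a (chromosome 17, 34969190 to 34972156), the classic heat-inducible HSP70, rose from 24.7, 23.6 and 29.0 FPKM in WT to 40.9, 32.5 and 40.4 in MSTN-KO. Its log2 fold change was 0.54 ± 0.14 with an adjusted p of 0.0186, and the groups did not overlap. The call was lost without WT replicate 1 or 2 (adjusted p = 0.0541 and 0.0991), without MSTN-KO replicate 1 or 3 (0.0843 and 0.0641), and with libraries scaled to equal sums (0.129). Hspa1b, a near-identical copy of Hspa1a, has no values here, so how reads of the pair were divided is uncertain.

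Of the 11 HSP70 genes, 1 was called higher and 3 lower (36.4%, beside 17.7% of all tested genes). Their median log2 fold change was -0.10. Hspa12b (chromosome 2, 131127280 to 131146321), a distant HSP70 relative known from endothelial cells, had 3.43, 2.77 and 2.44 FPKM in WT and 1.23, 1.06 and 1.56 in MSTN-KO. The groups were apart, with a log2 fold change of -0.76 ± 0.17 and an adjusted p of 0.00872. The defining endothelial markers in these libraries were near 0, with Pecam1 between 0 and 0.0542 FPKM. Hspa4l, an HSP110-like member induced under osmotic and heat stress, had 13.1, 10.1 and 11.2 FPKM in WT and 8.46, 7.96 and 4.86 in MSTN-KO (-0.65 ± 0.19, adjusted p = 0.0306). The groups did not overlap, and the call was lost without WT replicate 1 or 3 (adjusted p = 0.112 and 0.0619), without MSTN-KO replicate 3 (0.0896) and without a filter (0.0939).

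Hspa2, a member best known from spermatogenesis, had 8.82, 10.4 and 10.2 FPKM in WT and 7.05, 7.21 and 6.78 in MSTN-KO (-0.43 ± 0.14, adjusted p = 0.0486). Its groups did not overlap, but the adjusted p rose to between 0.0639 and 0.204 without WT replicate 2 or 3 or without MSTN-KO replicate 1, 2 or 3. The call was also lost without a filter (adjusted p = 0.0706), with a filter on the mean (0.05), with quantile normalization (0.0909) and with the replicate block (0.0906). The other HSP70 genes were not called. Hspa4 had 56.7 ± 7.0 FPKM in WT and 53.2 ± 8.09 in MSTN-KO, Hspa12a 8.88 ± 0.354 and 8.98 ± 0.906, and Hspa1l 1.03 ± 0.230 and 1.19 ± 0.226 (SD, n = 3). Hsph1, the HSP110 that serves as an exchange factor for HSP70, had 27.9 ± 3.40 and 24.8 ± 4.02 FPKM and a log2 fold change of -0.17 (95% interval -0.49 to 0.15).

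Neither of the cytosolic HSP90 paralogs was called. Hsp90ab1 (chromosome 17, 45567775 to 45573271), the constitutive HSP90β, had 1257, 1310 and 1398 FPKM in WT and 1589, 1571 and 1766 in MSTN-KO. The groups did not overlap, and the log2 fold change of 0.31 (95% interval 0.03 to 0.59) had an adjusted p of 0.116, but it was 0.03 after scaling to equal sums and -0.09 with quantile normalization. Hsp90aa1 (chromosome 12, 110690605 to 110702728), the inducible HSP90α, had 137, 159 and 192 FPKM in WT and 140, 147 and 67.7 in MSTN-KO, with a log2 fold change of -0.52 and an adjusted p of 0.152. MSTN-KO replicate 3 lay far under the other 5 libraries, while replicates 1 and 2 lay inside the WT range. The ratio of Hsp90ab1 to Hsp90aa1 was 9.17, 8.24 and 7.27 in WT and 11.3, 10.7 and 26.1 in MSTN-KO, a separation whose exact permutation p of 0.1 (two-sided) is the smallest that 3 against 3 libraries allow. The ratios of Hspa8 to Hspa1a, Hsp90ab1 to Hsp90b1 and Hspa8 to Hspa5 gave the same exact permutation p. Among single genes, the groups did not overlap for 37.4% of all tested genes. Leaving out 1 library moved Hsp90aa1 between -0.17 without MSTN-KO replicate 3 (adjusted p = 0.522) and -0.72 without MSTN-KO replicate 2, where it was called lower (adjusted p = 0.0364), and none of the 10 processing alternatives called it.

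**Figure D4:**
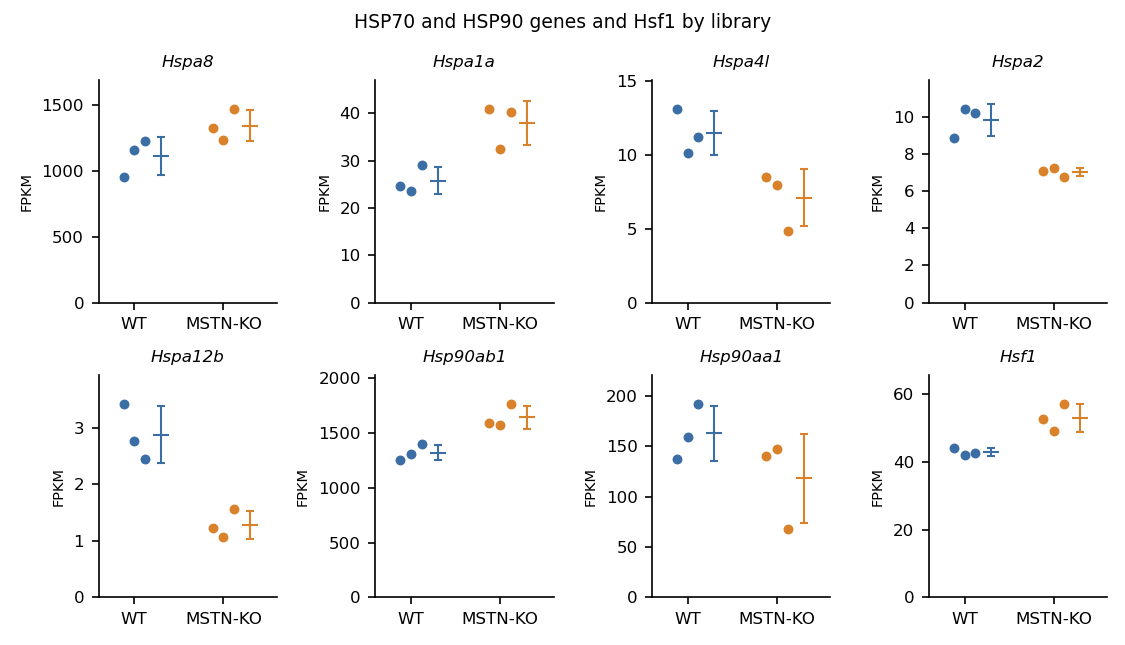
FPKM of 5 HSP70 genes, the cytosolic HSP90 genes and Hsf1 in each of the 3 WT (blue) and 3 MSTN-KO (orange) libraries, with the mean and SD of each group beside the points and every axis from 0. Hspa8, Hspa1a, Hsp90ab1 and Hsf1 are higher in every MSTN-KO library in the deposited FPKM, Hspa4l, Hspa2 and Hspa12b are lower in every one, and Hsp90aa1 overlaps with MSTN-KO replicate 3 at 67.7 FPKM.

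The heat shock factors were not called. Hsf1 (chromosome 15, 76477422 to 76501913) had 44.2, 42.1 and 42.8 FPKM in WT and 52.7, 49.2 and 57.2 in MSTN-KO, with no overlap, a log2 fold change of 0.29 (95% interval 0.03 to 0.55) and an adjusted p of 0.107. Hsf2 had 5.43, 6.70 and 8.11 FPKM in WT and 5.55, 7.41 and 3.52 in MSTN-KO (-0.29, adjusted p = 0.381). A set of 8 genes known to be induced through HSF1 was drawn up after the values were seen. It held Hspa1a, Hsph1, Dnajb1, Hspb1, Hsp90aa1, Dnaja1, Hspa4l and Cryab. In this set 1 was called higher and 1 lower (25%, beside 17.7% of all tested genes), and the median log2 fold change was -0.17. Dnajb1, the main inducible J-domain partner of HSP70, had 45.9 ± 0.919 FPKM in WT and 50.9 ± 4.86 in MSTN-KO (SD, n = 3) and was not called.

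No subunit of the CCT chaperonin was called. The 8 subunits of the ring (Tcp1, Cct2, Cct3, Cct4, Cct5, Cct6a, Cct7 and Cct8) stood between 109.6 and 412 FPKM in every library. Their summed level was 1396, 1606 and 1823 FPKM in WT and 1839, 1756 and 1902 in MSTN-KO, and the groups overlapped. 6 of the 8 were higher and 2 lower on average, with a median log2 fold change of 0.12, but the direction turned with the scaling: 2 were higher and 6 lower after scaling to equal sums (median -0.17), and 3 higher and 5 lower with quantile normalization (median -0.03). In the deposited values limma gave an adjusted p under 0.05 to 0 of them, beside 17.7% of all tested genes. With the length and GC correction it was 1 of them, beside 1212 of all 10837 tested genes called higher and 1344 lower. An unadjusted p under 0.05 was reached by 2 of the 8, Cct5 and Cct7, beside 32.6% of all tested genes. Cct5 had 213, 256 and 286 FPKM in WT and 320, 285 and 345 in MSTN-KO (0.34, adjusted p = 0.114), and MSTN-KO replicate 2 lay just under the highest WT library. Cct7 had 271, 272 and 288 FPKM in WT and 324, 322 and 412 in MSTN-KO, with no overlap (0.34, adjusted p = 0.094), and it was called higher after the correction for length and GC content (0.36, adjusted p = 0.0383).

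Cct2 had 316 ± 53.3 FPKM in WT and 370 ± 22.9 in MSTN-KO, the largest mean of the 8 in both groups (SD, n = 3). Tcp1 had 171 ± 21.3 and 182 ± 12.1 FPKM, Cct3 185 ± 29.8 and 202 ± 17.9, and Cct8 131 ± 21.2 and 138 ± 17.4. Cct4 (134 ± 22.2 and 133 ± 16.2 FPKM) and Cct6a (143 ± 20.9 and 139 ± 0.832) were the 2 with a negative fold change, and the 95% interval of Cct6a ran from -0.32 to 0.24. Cct6b, a testis form of the subunit, was at or under 0.114 FPKM in every library. The WT libraries differed more among themselves than the MSTN-KO libraries for 7 of the 8 subunits.

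**Figure D5:**
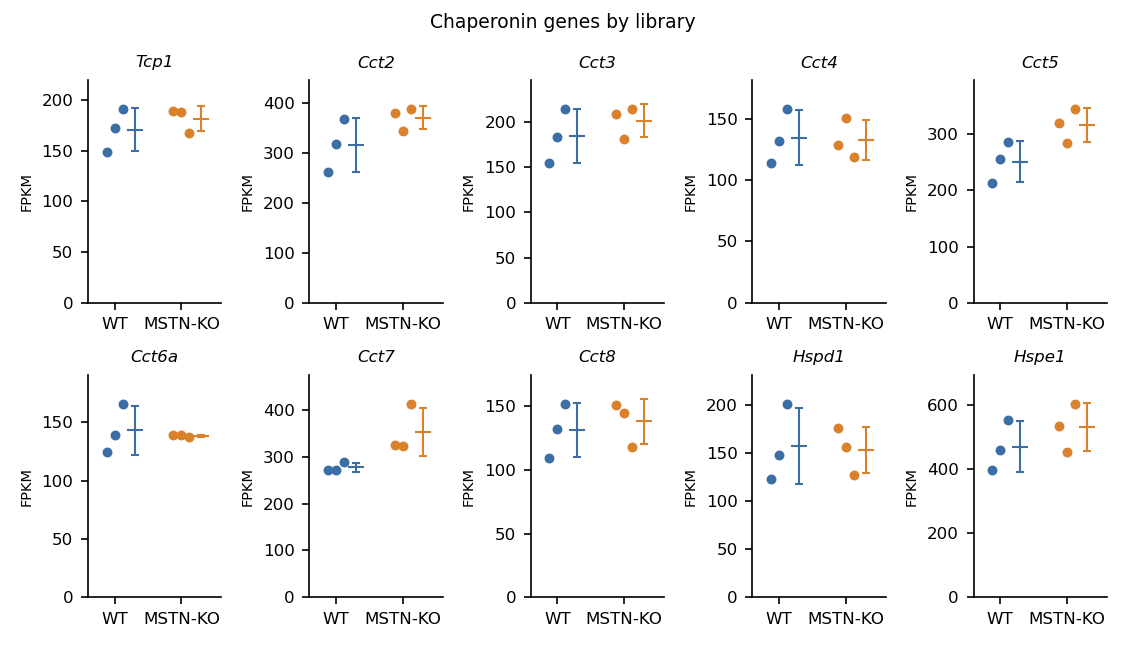
FPKM of the 8 CCT subunits and of Hspd1 and Hspe1 in each of the 3 WT (blue) and 3 MSTN-KO (orange) libraries, with the mean and SD of each group beside the points and every axis from 0. WT and MSTN-KO points overlap in every panel except that of Cct7, where the lowest MSTN-KO library (322) stands above the highest WT library (288).

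The mitochondrial chaperonin genes were not called either. Hspd1, which encodes HSP60, had 123, 148 and 201 FPKM in WT and 176, 156 and 128 in MSTN-KO, with a log2 fold change of -0.02 (95% interval -0.40 to 0.36). Hspe1, which encodes the HSP10 lid, had 396, 457 and 553 FPKM in WT and 533, 453 and 602 in MSTN-KO (0.18, 95% interval -0.15 to 0.51). The ratio of Hspe1 to Hspd1 was 2.74 to 3.21 in WT and 3.03, 2.90 and 4.72 in MSTN-KO, with MSTN-KO replicate 3 the highest (exact permutation p = 0.7, two-sided).

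The 2 genes stand head to head on chromosome 1, with RefSeq starts at 55087932 (Hspd1, minus strand) and 55088148 (Hspe1, plus strand) and 215 bases between them. A shared heat shock element, TTCNNGAANNTTC, lies in that stretch, and it is shown because it lies before both genes of the pair. It was found in the 250 bases before 0.514% of 27025 genes and before 3 of the 60 chaperone genes with an entry: Hspd1, Hspe1 and Dnajb6. The windows of Hspa1a, Dnajb1 and Hsph1 hold no match, and the search covered this exact spelling only. The 30 bases around the shared element, at chr1:55088053-55088082 on the plus strand, are given with overlapping matches on both strands in capitals.
Hspe1: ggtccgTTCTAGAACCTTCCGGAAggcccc

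GENCODE M21 annotates an exon of a longer Hspd1 transcript over this site, and the annotated spans of both genes overlap. Dnajb6, the third gene with a match, encodes a J-domain protein mutated in a limb-girdle muscular dystrophy. It had 67.7, 76.2 and 77.3 FPKM in WT and 50.0, 63.4 and 59.8 in MSTN-KO, with no overlap and an adjusted p of 0.0794. Hspa9, or mortalin, the mitochondrial HSP70, had 171 ± 21.9 FPKM in WT and 159 ± 13.8 in MSTN-KO (SD, n = 3) and was not called. A set of 7 mitochondrial members (Hspa9, Hspd1, Hspe1, Dnaja3, Dnajc11, Dnajc15 and Dnajc30) was drawn up after the values were seen. By limma 0 of them were called (17.7% of all tested genes were). An unadjusted p under 0.05 was found for 2 (32.6% of all tested genes). These were Dnaja3, the partner of mortalin, with 21.4 ± 1.80 and 27.7 ± 2.19 FPKM (0.36, adjusted p = 0.0725), and Dnajc15.

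In a list of 15 mitochondrial chaperone partners and proteases outside the rule, 14 were tested, 5 were called higher and 0 lower, beside 8.78% and 8.96% of all tested genes, and the median log2 fold change was 0.29. After scaling to equal sums 1 was called higher and 1 lower, with a median of 0.02. Trap1, the HSP90 of mitochondria, had 47.2, 47.9 and 45.2 FPKM in WT and 68.6, 66.4 and 77.5 in MSTN-KO (0.59 ± 0.12, adjusted p = 0.00513). Pam16, a subunit of the import motor in which mortalin works, had 117 ± 2.09 and 170 ± 29.1 FPKM (0.52, adjusted p = 0.0195), and the protease gene Htra2 had 58.1 ± 4.39 and 82.8 ± 10.8 (0.50, adjusted p = 0.0197).

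The J-domain family numbered 37, of which 33 were tested, with a median log2 fold change of -0.11. Of the 33, 1 was called higher and 3 lower (12.1%, beside 17.7% of all tested genes). The gene called higher was Dnajc4 (chromosome 19, 6987911 to 6992572), a J-domain protein of little known function. It had 24.2, 20.6 and 20.7 FPKM in WT and 32.7, 28.3 and 34.5 in MSTN-KO, with no overlap, a log2 fold change of 0.52 ± 0.13 and an adjusted p of 0.017. The call was lost without WT replicate 2 or 3 (adjusted p = 0.089 and 0.052), without MSTN-KO replicate 1 or 3 (0.0684 and 0.0552), and with libraries scaled to equal sums (0.127). The 3 genes called lower were the ER members Dnajb11, Dnajb9 and Dnajc3.

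The most abundant J-domain genes were not called. Dnaja1, a general partner of HSC70, had 85.8, 96.0 and 109 FPKM in WT and 95.3, 78.4 and 68.6 in MSTN-KO (-0.26, adjusted p = 0.225). Dnajc15, a J-domain protein of the mitochondrial inner membrane, had 72.5, 86.0 and 90.2 FPKM in WT and 53.7, 63.2 and 70.7 in MSTN-KO, with no overlap (-0.40, adjusted p = 0.0624). Dnajc15 was called lower without WT replicate 1 (adjusted p = 0.0468) and without MSTN-KO replicate 3 (0.0487), and under 3 of the scalings. Dnajc8, a splicing-associated member, had 49.7, 64.5 and 78.8 FPKM in WT and 73.0, 66.4 and 76.8 in MSTN-KO (0.18, adjusted p = 0.441). The 4 J-domain genes left out of the test were Dnajb13, Dnajc6, Dnajc22 and Dnajc28, each under 1 FPKM in every library.

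The letters of the rule also took in Hspb11, Hspbap1 and Hspbp1, which are not small heat shock proteins of muscle. Hspb11, known as the intraflagellar transport gene Ift25, had 32.3, 36.2 and 35.1 FPKM in WT and 40.5, 50.8 and 61.8 in MSTN-KO (0.53 ± 0.15, adjusted p = 0.029). The groups did not overlap. The call was lost without any 1 of the WT replicates 1, 2 and 3 (adjusted p = 0.089, 0.0686 and 0.0559), without MSTN-KO replicate 3 (0.103), without a filter (0.0676) and with equal sums (0.177). Hspbap1 and Hspbp1 were not called, and Hspb9, a testis small heat shock protein, was under 1 FPKM in every library.

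Cochaperones outside the rule were read from a list of 36, all tested, with 3 called higher and 4 lower. These calls were 19.4% of the list, beside 17.7% of all tested genes, and the median log2 fold change was -0.02. The falls with the largest size were in genes of muscle. Itgb1bp2, or melusin, a muscle chaperone partner of HSP90, had 2.92, 4.44 and 0.999 FPKM in WT and 0.212, 0 and 0.278 in MSTN-KO (-1.59 ± 0.29), and Smyd1, a methyltransferase that acts with HSP90 on myosin, had 10.6, 7.59 and 5.55 in WT and 1.49, 2.04 and 2.24 in MSTN-KO (-1.58 ± 0.20). Both met the DEG rule. Unc45b, the myosin chaperone of striated muscle, had 1.75, 1.48 and 0.203 FPKM in WT and 0, 0.0669 and 0.0283 in MSTN-KO (-0.97 ± 0.27). These 3 were lowest among the WT libraries in replicate 3, the library in which the differentiation genes were also lowest. The genes called higher were Pfdn6 and Pfdn5, subunits of the prefoldin complex that passes actin and tubulin to CCT, and the ubiquitin ligase gene Stub1. Pfdn6 had 132 ± 13.5 FPKM in WT and 193 ± 32.9 in MSTN-KO (0.54), Pfdn5 291 ± 9.22 and 388 ± 36.4 (0.41), and Stub1 126 ± 8.89 and 171 ± 19.8 (0.44).

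Gene length and GC content moved with the fold changes in the chaperone genes as in all genes. The 4 chaperone genes called higher had 1240 to 2967 exon bases (median 2185) and the 6 called lower 2549 to 11792 (median 3460.5). The 58 not called had 834 to 15741, with a median of 4305.5, above that of either called group. Across the 68 genes, Spearman's rho of the fold change was -0.25 with length and 0.34 with GC content, and across 10784 tested genes it was -0.22 and 0.31, as descriptions over genes that share the 6 libraries. With each library corrected for both, 6 chaperone genes were called higher and 9 lower, 22.1% of the 68 beside 23.6% of all tested genes under the same correction (1212 higher and 1344 lower).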

How the data were processed

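RNA of WT and MSTN-KO C2C12 cells had been sequenced on an Illumina HiSeq instrument. The files deposited by the authors give FPKM for each gene, 1 library per file, with no replicates pooled. The submitters' processing notes name Bowtie 0.12.2 and mm8. The counter, the annotation and any filter on genes are not given in the sources used here. Because FPKM is a share of the library, very abundant genes lower the values of the rest. The files hold no counts, so counting error could not be given. Libraries were grouped by the genotype label.

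GENCODE M21 (GRCm38) gave the symbols, positions, exon lengths and GC content, joined by gene identifier only, since that build differs from mm8. Of 14548 genes, 14445 (99.3%) had a symbol, a length and a GC content. Promoter windows came from RefSeq (GRCm38.p6).

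Values were fitted as log2(FPKM + 1) with limma 3.58.1 in R 4.3.3, with group as the factor and eBayes with a trend, over genes that reached 1 FPKM in any library. Calls were two-sided with Benjamini-Hochberg adjustment over all tested genes at 0.05. The DEG rule took its cutoffs from the study's methods and was applied to this fit. The exact permutation tests used all 20 ways to regroup the 6 libraries. The fit was tested on simulated data first. Each result was recomputed with a pseudocount of 0.1, no filter, a filter on the mean, no trend, quantile normalization, scaling on percentile 75, scaling to a sum of 1000000, a correction for length and GC content (mgcv 1.9.3), a replicate block, that block together with the correction, and leaving out each library. Tables and plots were made in Python 3.11.15 (scipy 1.17.1, pandas 2.3.3, numpy 2.4.6, matplotlib 3.10.9).

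The genes and lists were chosen with earlier results of these data known. The genes named are all muscle small heat shock protein, HSP70, HSP90, HSP110, HSP60, HSP10, CCT and heat shock factor genes, and of the J-domain genes those meeting the DEG rule, up to 6 called rises and 6 called falls, and the 3 with the highest mean. Of each other list, up to 3 called rises and 3 called falls are named. Dnajb1, Dnajb6, Dnaja3, Dnajc10, Hspb11, Hspbap1, Hspbp1, Calr and the lists by compartment were chosen after their values were seen. So were Dnajc1, Dnajb12, Dnajb14, Dnajc16 and Dnajc18. The markers and Myog are named as checks. A list of further heat shock factor pathway genes is not reported here.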

Additional observations from a re-analysis of the deposited data

How the results depend on the processing

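No call changed sign under any alternative. With a pseudocount of 0.1, 1 chaperone gene met the DEG rule as downregulated, against 0. Without a filter, 3 chaperone genes were called higher and 3 lower (720 and 906 of all 14548 genes). With quantile normalization, 2 muscle small heat shock protein genes were called lower, against 0 (941 of all genes were called lower under that setting). With scaling to a sum of 1000000, 1 chaperone gene was called higher and 17 lower, 2 were downregulated DEGs, and 1 muscle small heat shock protein gene was called lower. Over all genes that scaling gave 350 called higher and 2367 lower, against 952 and 971. With the correction for length and GC content, 6 chaperone genes were called higher and 9 lower (1212 and 1344 of all genes), 1 muscle small heat shock protein gene was called lower and 1 CCT subunit higher. Leaving out 1 library gave 1 to 4 chaperone genes called higher and 3 to 9 lower, and 423 to 1184 of all genes called higher and 606 to 1251 lower. The cause of these changes was not tested.

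The replicate numbers did not pair the libraries (r of same-numbered deviations -0.015, -0.13 and -0.14). With the replicate block, 4 chaperone genes were called higher and 7 lower (939 and 1001 of all genes). With the replicate block and the correction for length and GC content together, 6 chaperone genes were called higher and 11 lower (1157 and 1255 of all genes), 1 muscle small heat shock protein gene was called lower and 1 CCT subunit was called higher.

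FPKM files allow no counting error, so genes under 1 FPKM such as Hspb3 and Hspb7 cannot be read finely. With 3 libraries per group the exact tests cannot give less than 0.1.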
